A study of Mus musculus with 2 samples.

Results

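The 8 genes described here cover the handling of cholesterol and lipoprotein lipid in macrophages. They are *Srebf1*, *Srebf2*, *Nr1h3*, *Abca1*, *Abcg1*, *Apoe*, *Lpl* and *Ch25h*, taken by their gene symbols from a table of 37451 Ensembl genes, in which each symbol had 1 row. The control RNA-Seq held 1 library of WT bone marrow-derived macrophages (BMDMs) and 1 library of ΔM BMDMs. WT cells came from C57BL/6 littermates and ΔM cells from TTP fl/fl LysMCre mice on the same background, both aged 7 to 9 weeks. In ΔM mice the gene *Zfp36*, which encodes the mRNA-destabilizing protein tristetraprolin (TTP), is deleted by Cre under control of the lysozyme M gene, so that the deletion is limited to myeloid cells and depends on how completely Cre acted. All cells were grown with CSF-1 from L929 cells, labeled with 100 μM 4-thiouridine for 16 h and then exposed to LPS at 10 ng/ml over 6 h. Unstimulated cells were not part of these libraries, so that no value below shows what LPS did.

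Macrophages take up lipoproteins and cell debris and cannot break down the sterol ring, so that they depend on storage and on export of cholesterol. Low sterol in the endoplasmic reticulum releases the SREBP transcription factors, which switch on the genes of cholesterol and fatty acid synthesis and the LDL receptor. High sterol yields oxysterols, which block SREBP processing and activate the LXR receptors, and LXRs in turn induce the exporters ABCA1 and ABCG1 and the acceptor protein apolipoprotein E. TTP binds AU-rich elements in 3′ UTRs, with UAUUUAU as its preferred sequence.

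The 3′ UTRs of the 8 genes were searched on the sense strand for the DNA form of that sequence, TATTTAT, in the longest annotated 3′ UTR of each gene (mm9, GENCODE M1). Matches were found in 3 genes. They are shown with 10 nt on either side, 5′ to 3′, with the match in capitals.
*Lpl*, first match: aatgaagaatTATTTATgaacgagatc
*Lpl*, second match: gctttcaattTATTTATtagctgtaaa
*Srebf1*: aaaatgaaatTATTTATaacttcagtt
*Ch25h*: tgaaatgataTATTTATattgaaaaaa

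The *Lpl* matches lie on the plus strand at chr8:71430145-71430151 and chr8:71430581-71430587, which is 2546 and 2982 nt after the stop codon in a 3′ UTR of 3232 nt. The *Srebf1* match lies on the minus strand at chr11:60013101-60013107, and the *Ch25h* match on the minus strand at chr19:34548324-34548330. *Srebf2*, *Nr1h3*, *Abca1*, *Abcg1* and *Apoe* held no TATTTAT in this longest 3′ UTR. Among 7930 protein-coding genes that averaged 1 FPKM or more and had an annotated 3′ UTR, 27.2% held at least 1 match. Long 3′ UTRs hold more matches. Of the genes with a 3′ UTR within 20% of the length of that of *Lpl*, 52.0% held the sequence, against 19.5% at the length of *Srebf1* (833 nt) and 12.4% at the length of *Ch25h* (444 nt). The shorter pentamer ATTTA, which every TATTTAT contains, was present in 5 of the 8 genes, with 8 matches in *Lpl*, 6 in *Abca1*, 3 in *Ch25h*, 2 in *Srebf2* and 1 in *Srebf1*. *Nr1h3* and *Apoe* have the shortest 3′ UTRs, with 275 and 271 nt. Their searched 3′ UTRs and that of *Abcg1* (1492 nt) held no ATTTA. Over all annotated 3′ UTRs of its coding transcripts, *Apoe* held 1 ATTTA. At the length of *Abcg1*, 83.2% of genes held one. A match is only a run of letters and says nothing about binding.

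Binding positions in these genes are listed in the supplement of the study and are shown here for their sequences, because they place TTP and HuR, an mRNA-stabilizing protein, on transcripts of the group. *Lpl* was the member found in the copy used here of the list for TTP at 6 h, which is not complete, with positions chr8:71430579-71430581 and chr8:71430592-71430593 on the plus strand. The first shares 1 nt with the second TATTTAT of *Lpl*, and the second begins 5 nt past its end. *Abcg1* and *Lpl* were found in the copy of the HuR list used here, with 8 positions in *Abcg1* and 1 in *Lpl*. The longest 3 of *Abcg1* are given below, at chr17:31251455-31251480, chr17:31252532-31252546 and chr17:31251484-31251497 on the plus strand. The HuR copy is not complete either. Capitals mark the listed positions.
*Lpl*, TTP, first position: tagctttcaaTTTatttattagc
*Lpl*, TTP, second position: atttattagcTGtaaataatgt
*Abcg1*, HuR, position 1: tcTTTTTTTTTTTTTTTTTTTTTAGATGtg
*Abcg1*, HuR, position 2: tagagatTCTTTTTATTTTTTAcactcct
*Abcg1*, HuR, position 3: agatgtggGATTCAAAATACAActggcata

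Expression was given in FPKM, in which fragments are scaled to exon length and to the mapped fragments of a library, so that levels of different genes can be compared per length. Each genotype was represented by a single library. Differences between them could not be set against a spread between replicates, and p-values were not calculated. In total RNA of a culture, less RNA per cell and fewer cells that express a gene cannot be told apart. The steps between low FPKMs placed the depth at about 37200000 fragments in WT and 32500000 in ΔM, and from these 95% counting intervals were calculated that cover counting error only. *Zfp36* (ENSMUSG00000044786, chr7:29161803-29164274, mm9) was at 65.3 (WT) and 16.7 FPKM (ΔM). All 8 macrophage markers looked up were present in both libraries, 6 of them within 1.5-fold, such as *Cd68* with 388 FPKM in WT against 390 in ΔM. *Lyz2*, the locus that carries Cre, was lower in ΔM, with 2481 and 1356 FPKM, and *Mrc1*, the mannose receptor, was higher, with 5.45 and 11.6 FPKM. Markers of T and B cells summed to 1.04 FPKM in WT and 0.85 in ΔM, those of stromal cells to 0.82 and 0.43, and those of erythroid cells to 0.67 and 0.08. Of the neutrophil list *Ly6g*, *S100a9*, *Ngp* and *Elane* were listed at 0 in both libraries, while *S100a8*, which activated macrophages also express, was at 50.7 FPKM in WT and 100.02 in ΔM. Of the dendritic cell list *Itgax* was at 3.96 and 3.47 FPKM, and *Flt3*, *Zbtb46* and *Xcr1* were at 0.06 FPKM or less. The part of these levels in the results below was not tested.

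All 8 genes were expressed in both libraries, from 7.88 FPKM for *Nr1h3* to 201 FPKM for *Lpl* in WT and from 12.4 FPKM for *Ch25h* to 185 FPKM for *Lpl* in ΔM. All 8 therefore passed the minimum of 1 FPKM in the mean of both libraries that was used for ratios. Ratios are given as log2 of (ΔM + 1)/(WT + 1), and a gene was counted as higher or lower when this passed 1.5-fold. *Apoe* was lower and *Nr1h3* was higher in ΔM, and the other 6 genes lay within 1.5-fold. Among all 8078 protein-coding genes that reached this minimum, 4.83% were higher, 5.36% were lower and 10.2% passed 1.5-fold in either direction. With so few genes, nothing about the group is read from 2 of 8. The median log2 ratio of the 8 genes was 0.16, with 5 above 0 and 3 below, against a median of -0.00148 over all genes tested.

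**Figure D1:**
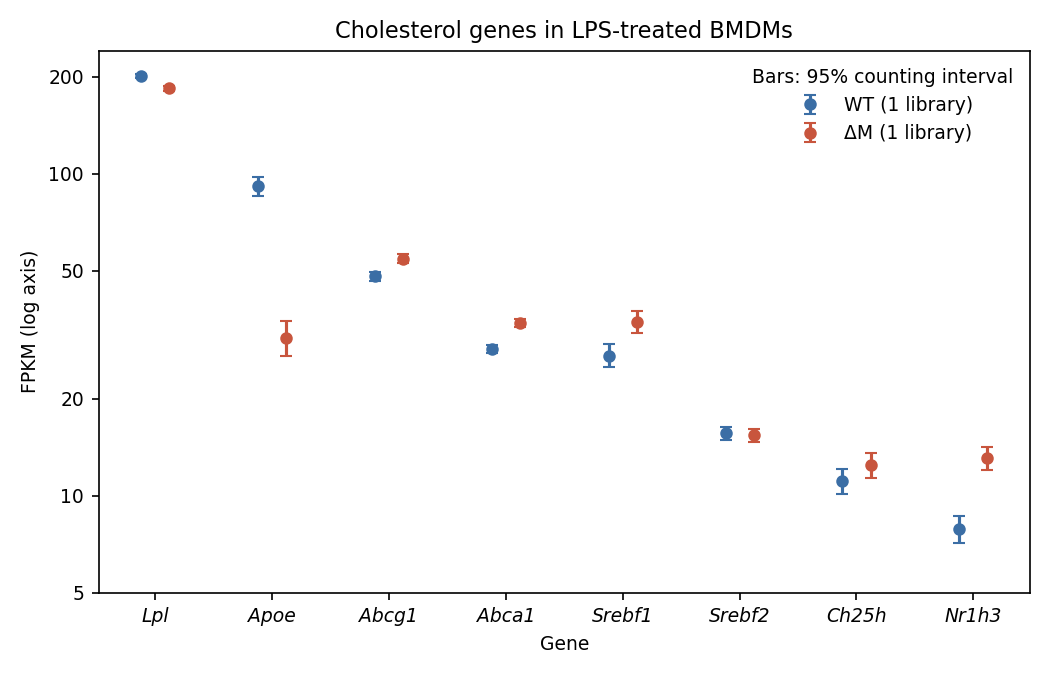
FPKM (log axis) of the 8 genes in the WT library (blue) and the ΔM library (red), ordered by the WT level, with 95% counting intervals as bars. *Apoe* lies at 91.4 FPKM in WT against 30.9 FPKM in ΔM, *Nr1h3* at 7.88 against 13.1 FPKM, and the 2 points of each other gene lie close together.

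*Apoe* encodes apolipoprotein E, the protein on which macrophages release cholesterol and phospholipid and which the LDL receptor family recognizes. It was at 91.4 (WT) and 30.9 FPKM (ΔM), which is 2.95 times as much in WT. The log2 ratio was -1.53. The counting intervals, from 85.4 to 97.7 FPKM in WT and from 27.2 to 34.9 FPKM in ΔM, did not overlap. Past 2-fold in either direction were 2.51% of all tested genes, and *Apoe* was the member among them. Its ratio was number 19 from the lowest of 8078. Of the 918 genes whose mean FPKM lay within 2-fold of that of *Apoe*, 2 had a lower ratio, namely *Zfp36* itself and *Gm17658*. *Apoe* (ENSMUSG00000002985) lies at chr7:20281458-20284515 on the minus strand, 8.88 Mb from *Zfp36* on the same chromosome. Its 10 annotated transcripts include a coding one of 456 nt, the length on which the intervals rest.

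**Figure D2:**
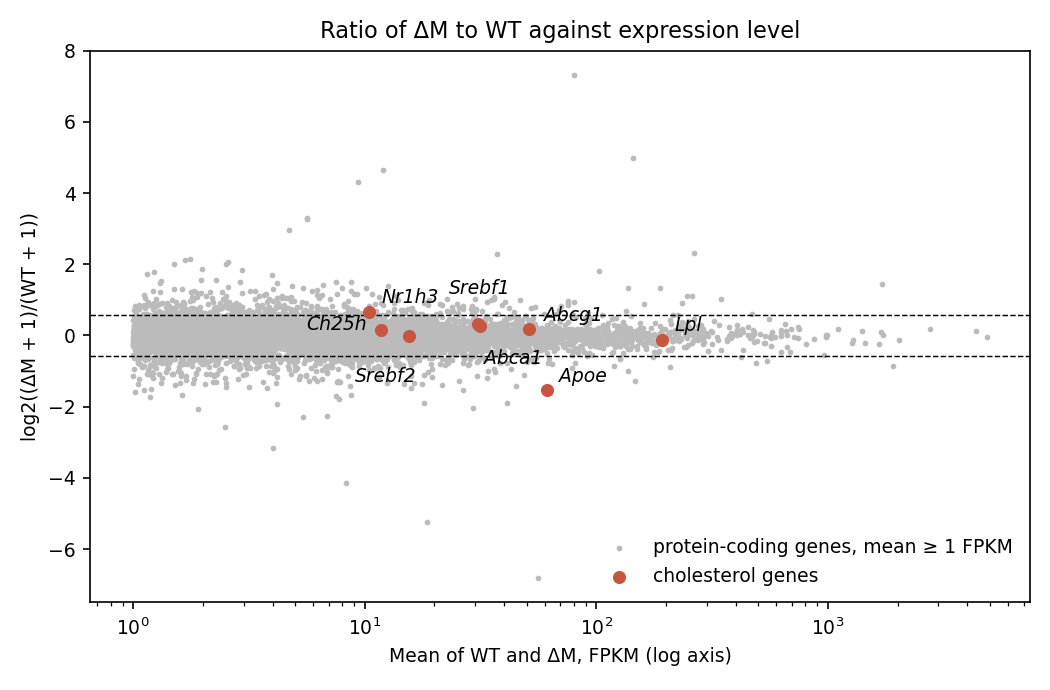
Log2 ratio of ΔM to WT after adding 1 FPKM (vertical axis) against the mean FPKM of both libraries (log axis) for the 8078 protein-coding genes tested (grey) and the 8 cholesterol genes (red). Dashed lines mark 1.5-fold; *Apoe* stands below the cloud of genes at its level, *Nr1h3* just above the upper line, and the other 6 within the lines.

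*Nr1h3* encodes LXRα, the LXR that is induced in macrophages and controls the exporters and *Apoe*. It was at 7.88 (WT) and 13.1 FPKM (ΔM), a ratio of 1.66 with a counting interval from 1.47 to 1.88. The log2 ratio of 0.67 was exceeded by 283 of the 8078 genes. The lower bound of the counting interval is under 1.5-fold, so that counting error alone does not place *Nr1h3* beyond it. Its partner *Nr1h2*, which encodes the widely expressed LXRβ, was at 67.2 (WT) and 51.8 FPKM (ΔM), within 1.5-fold. *Nr1h2* was thus 8.53 times as high as *Nr1h3* in WT and 3.96 times as high in ΔM. *Nr1h3* and *Nr1h2* thus lay on opposite sides of no difference. Of 6 tested protein-coding genes within 100 kb of *Nr1h3*, 1 was higher and 0 were lower, with a median log2 ratio of 0.14. The higher one, *Madd*, named after its value was seen, lies 224 nt away on the same strand. It was at 7.29 (WT) and 13.7 FPKM (ΔM), a log2 ratio of 0.82. Whether the 2 genes share a cause was not tested.

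Both exporters were slightly higher in ΔM, within 1.5-fold. *Abca1*, which moves cholesterol to lipid-poor apolipoproteins, was at 28.6 (WT) and 34.4 FPKM (ΔM), a log2 ratio of 0.26. *Abcg1*, which promotes efflux to mature high-density lipoprotein, was at 48.1 and 54.4 FPKM, a log2 ratio of 0.18. The counting intervals of neither gene overlapped between the libraries, with ratios from 1.16 to 1.25 for *Abca1* and from 1.08 to 1.18 for *Abcg1*. Differences of that size were common, since 1467 of 8078 genes had a ratio above that of *Abca1* and 2056 a ratio above that of *Abcg1*. The level of *Abcg1* was 1.68 times that of *Abca1* in WT and 1.58 times in ΔM. *Apoe* was 3.20 times as high as *Abca1* in WT and 0.90 times as high in ΔM.

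Of the SREBP genes, *Srebf1* was slightly higher in ΔM and *Srebf2* was nearly equal in both libraries. *Srebf1*, which encodes SREBP-1a and SREBP-1c and mainly serves fatty acid synthesis, was at 27.3 (WT) and 34.7 FPKM (ΔM), a log2 ratio of 0.34. *Srebf2*, which encodes the main regulator of cholesterol synthesis, was at 15.7 and 15.4 FPKM, a log2 ratio of -0.02. The counting interval of the ratio ran from 1.14 to 1.42 for *Srebf1* and from 0.92 to 1.05 for *Srebf2*. The level of *Srebf1* was 1.74 times that of *Srebf2* in WT and 2.25 times in ΔM. *Srebf1* has 14 annotated transcripts, and gene values do not tell its isoforms apart.

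*Lpl* encodes lipoprotein lipase, which frees fatty acids from triglyceride-rich lipoproteins. It was the highest member in both libraries, at 201 (WT) and 185 FPKM (ΔM). It exceeded 97.9% of the tested genes in WT and 97.7% in ΔM. The log2 ratio was -0.12, and 2678 of the 8078 genes had a lower one. The counting interval of the ratio ran from 0.90 to 0.94. *Lpl* is the member with the TTP positions shown above, but decay was not measured in these libraries. The study measured mRNA decay in WT and ΔM macrophages in other libraries, which were not used here. Whether TTP acts on *Lpl* mRNA was therefore not tested here.

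*Ch25h* encodes cholesterol 25-hydroxylase, an interferon-inducible enzyme that makes 25-hydroxycholesterol. It was at 11.1 (WT) and 12.4 FPKM (ΔM), a log2 ratio of 0.15. The counting interval of the ratio, from 0.98 to 1.28, included no difference. The annotated antisense gene *Gm16704* shares 159 of the 1350 exonic bases of *Ch25h*, but it was at 0.05 (WT) and 0.10 FPKM (ΔM). Exon overlap was smaller for *Srebf1* with *Rai1* (109 bases) and for *Nr1h3* with *Gm13783* (34 bases), and the other 5 members shared no exonic bases with another annotated gene.

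The order of the levels in WT was *Lpl*, *Apoe*, *Abcg1*, *Abca1*, *Srebf1*, *Srebf2*, *Ch25h* and *Nr1h3*. *Apoe* held rank 2 in WT and rank 5 in ΔM, and *Nr1h3* stood above *Ch25h* in ΔM. By counting error, *Abca1* and *Srebf1* were not separated in WT. In ΔM *Srebf1*, *Abca1* and *Apoe* followed each other with overlapping intervals, as did *Nr1h3* and *Ch25h*. The FPKMs of the 8 genes summed to 431 in WT and 380 in ΔM. *Apoe* made up 21.2% of this sum in WT and 8.14% in ΔM, and without *Apoe* the sums were 339.28 and 348.92 FPKM.

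The surroundings of *Apoe* were examined because *Apoe* stood apart, a choice made after its value was seen. *Apoe* is part of a cluster with the smaller apolipoprotein genes *Apoc1*, *Apoc4* and *Apoc2*, which in macrophages share LXR-responsive enhancers. *Apoc2*, which encodes the cofactor of lipoprotein lipase, was at 5.12 (WT) and 1.24 FPKM (ΔM), a log2 ratio of -1.45. The counting interval of its ratio was wide, from 0.12 to 0.45, because it rests on about 57 fragments in WT and 12 in ΔM. *Apoc1* was listed at 0 in WT and at 0.43 FPKM in ΔM, and *Apoc4* at 0.31 FPKM in WT and 0 in ΔM. Within 100 kb of *Apoe* there are 10 other protein-coding genes, of which 6 reached a mean of 1 FPKM. Their median log2 ratio was -0.29. *Tomm40*, the next gene upstream, was at 6.28 and 6.18 FPKM, and *Clptm1*, beyond *Apoc2*, was at 12.4 and 11.9 FPKM. *Relb*, a subunit of NF-κB, was at 23.8 (WT) and 15.2 FPKM (ΔM), a log2 ratio of -0.61. *Pvrl2* had a log2 ratio of -0.53 and *Clasrp* one of 0.32. Of these 6 neighbours 2 were lower past 1.5-fold, *Apoc2* and *Relb*, and 0 were higher. Among all tested genes 5.36% were lower, and nothing is read from a count over so few neighbours. *Pvrl2* was low as well but within 1.5-fold. *Tomm40* and *Clptm1* had log2 ratios of -0.02 and -0.05, and *Clasrp* lay above 0.

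**Figure D3:**
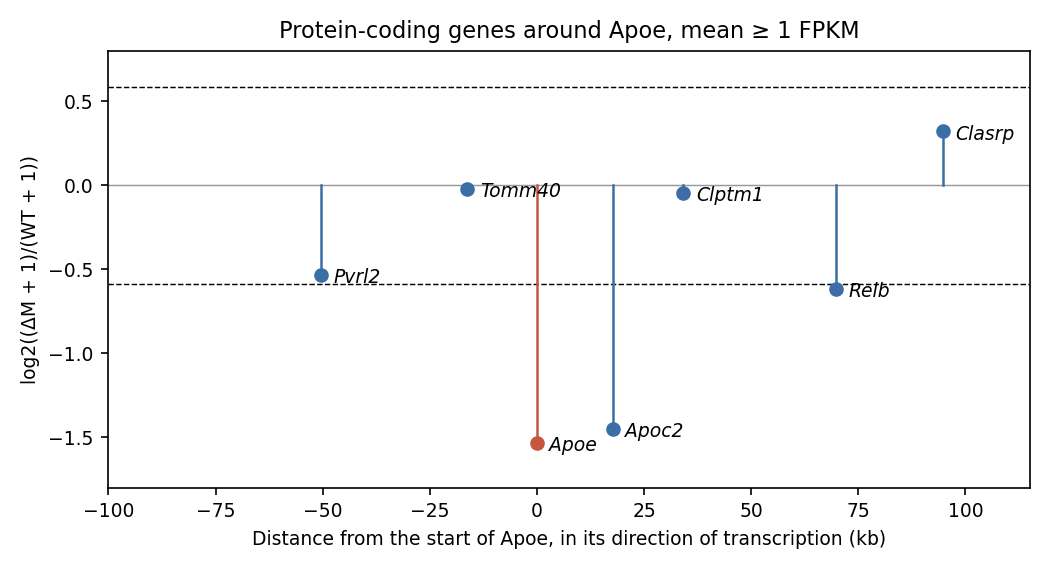
Log2 ratio of ΔM to WT (vertical axis) of *Apoe* (red) and of the 6 protein-coding genes within 100 kb that reached a mean of 1 FPKM (blue), placed by the distance of their start from that of *Apoe* in its direction of transcription (kb). Dashed lines mark 1.5-fold. *Apoe* and *Apoc2* lie far below the lower line, *Relb* just past it and *Pvrl2* just inside it. *Tomm40* and *Clptm1* lie near 0, and *Clasrp* lies above 0.

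The other genes of cholesterol and lipid handling were taken from 9 lists with 98 different genes in the table, of which 73 reached a mean of 1 FPKM. Of these 73 genes 3 were higher and 3 were lower in ΔM, which is 8.22% in all, against 10.2% of all tested genes. Their median log2 ratio was 0.04. With few tested genes in each list, nothing is read from how many genes of a single list passed 1.5-fold. The genes past 1.5-fold were *Acaca*, *Stab1* and *Mbtps2* on the higher side and *Apoc2*, *Marco* and *Stard4* on the lower side. *Apoc2*, *Marco*, *Stard4* and *Mbtps2*, with means below 5 FPKM, are named after their values were seen.

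The tested enzymes of cholesterol synthesis, the targets of SREBP-2, all lay within 1.5-fold after 1 FPKM was added. Of 20 genes 18 were in the table and 16 were tested, with a median log2 ratio of 0.06, 9 above 0 and 7 below. *Sc4mol*, now *Msmo1*, which removes methyl groups from lanosterol-derived sterols, was at 28.4 (WT) and 25.2 FPKM (ΔM). *Cyp51*, the lanosterol demethylase, was at 19.4 and 14.7 FPKM, a log2 ratio of -0.38. *Dhcr7*, named after its values were seen, was at 0.79 (WT) and 1.36 FPKM (ΔM). Without the added 1 FPKM its ratio was 1.72, with a counting interval from 0.72 to 4.25 that includes no difference. The spread of the list, from -0.43 to 0.44, was larger than the distance of its median from 0.

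Among 6 tested genes of SREBP processing and feedback, *Mbtps2*, the site-2 protease that releases SREBPs, was at 2.76 (WT) and 5.05 FPKM (ΔM). *Stard4*, an SREBP-2 target that carries cholesterol between membranes, was at 4.79 and 2.62 FPKM. The counting intervals of the ratios of *Mbtps2*, from 1.16 to 2.86, and of *Stard4*, from 0.36 to 0.81, reach within 1.5-fold. *Scap*, the escort protein of SREBPs, was at 22.2 and 19.6 FPKM, and the retention proteins *Insig2* and *Insig1* were at 16.4 and 12.7 FPKM and at 6.21 and 6.50 FPKM. On its shortest coding transcript, 204 nt, *Insig2* rests on about 2 fragments in each library. The counting interval of its ratio then runs from 0.05 to 9.47 and includes no difference. Of 8 tested enzymes of fatty acid synthesis, the branch served by SREBP-1, 1 was higher. *Acaca*, acetyl-CoA carboxylase, was at 5.15 (WT) and 12.9 FPKM (ΔM), a log2 ratio of 1.17. Its annotated coding transcripts differ widely in length, and on the shortest of them, 227 nt, the counting interval of the ratio runs from 0.84 to 9.24 and includes no difference. *Acly*, which supplies acetyl-CoA, was at 48.0 and 50.4 FPKM, and *Elovl5*, a fatty acid elongase, was at 7.84 and 6.26 FPKM. The list had a median log2 ratio of -0.02.

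LXR targets other than the members had a median log2 ratio of 0.12 over 9 tested genes, with 5 above 0 and 4 below. *Apoc2* was lower and the other 8 lay within 1.5-fold after 1 FPKM was added. *Mertk*, named after its values were seen, was at 2.15 (WT) and 3.48 FPKM (ΔM). Without the added 1 FPKM its ratio was 1.62, with a counting interval from 1.38 to 1.90. *Pltp*, the phospholipid transfer protein, had the highest level of the lipid lists at 681 (WT) and 809 FPKM (ΔM), a log2 ratio of 0.25. *Tgm2*, a transglutaminase, was at 39.4 and 42.9 FPKM and *Smpdl3a*, a phosphodiesterase, at 37.2 and 40.4 FPKM. In the list of LXR receptors and their cofactors, which included *Nr1h2*, the 5 tested genes all lay within 1.5-fold. Their median log2 ratio was -0.28, with 2 above 0 and 3 below. The 2 above 0 were *Ncor1*, a corepressor, at 17.6 and 25.6 FPKM and *Ncoa1*, a coactivator, at 3.12 and 4.20 FPKM.

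**Figure D4:**
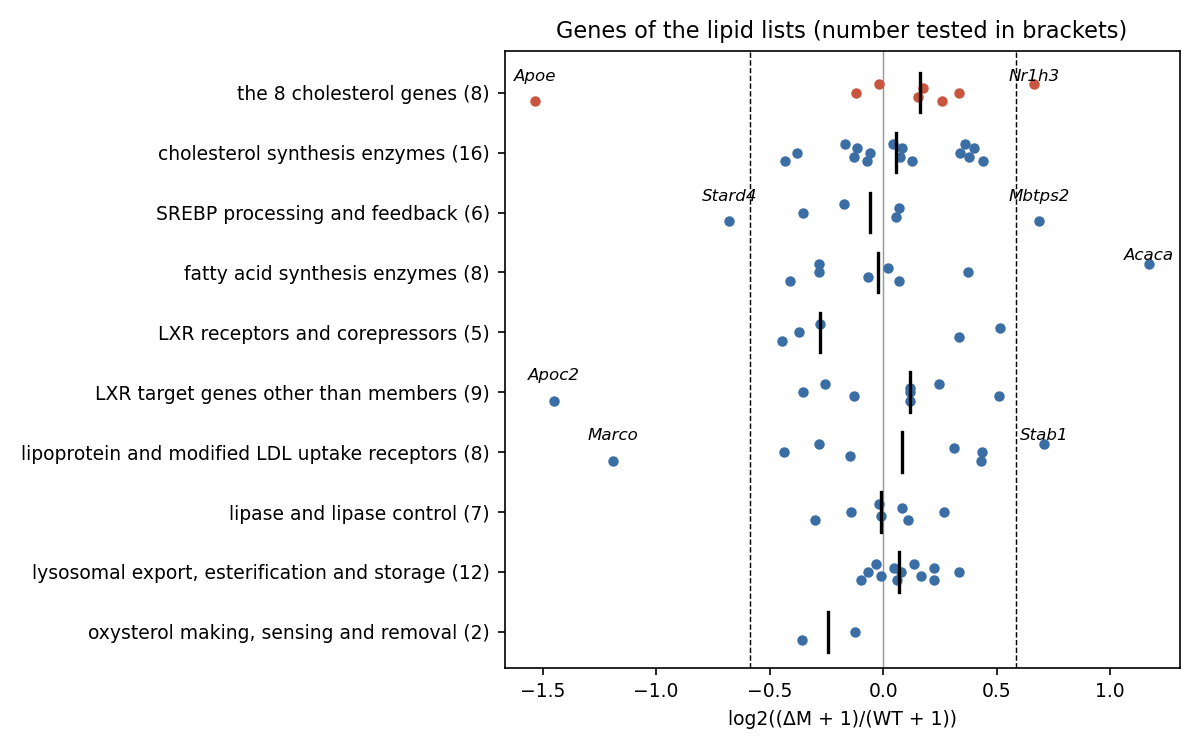
Log2 ratio of ΔM to WT (horizontal axis) of the tested genes of each lipid list (blue points) and of the 8 cholesterol genes (red points), with the number tested in brackets and black bars at the medians; vertical spread of points has no meaning. Dashed lines mark 1.5-fold, which 6 list genes and 2 of the 8 cholesterol genes pass.

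Receptors for lipoproteins and modified LDL went both ways. Of 8 tested, *Stab1*, a scavenger receptor that binds acetylated LDL, was higher, at 22.7 (WT) and 37.7 FPKM (ΔM), a log2 ratio of 0.71. The counting interval of its ratio, from 1.37 to 2.02, begins under 1.5-fold. *Marco*, a scavenger receptor of the SR-A family, was lower, at 3.86 and 1.13 FPKM, a log2 ratio of -1.19. The most abundant receptors lay within 1.5-fold. *Msr1*, the scavenger receptor A, was at 177 and 145 FPKM, *Cxcl16*, a scavenger receptor that also acts as a chemokine, at 84.3 and 76.2 FPKM, and *Cd36*, which takes up oxidized LDL, at 59.6 and 43.8 FPKM. The median log2 ratio of the list was 0.08.

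In the lists of this paragraph all tested genes lay within 1.5-fold. Since 10.2% of all tested genes passed it, lists this short show nothing particular about these steps. The 12 genes of lysosomal export, esterification and storage were all tested and all lay within 1.5-fold, from -0.10 to 0.33 on the log2 scale with a median of 0.07. *Plin2*, the coat protein of lipid droplets, was at 297 (WT) and 327 FPKM (ΔM). *Lamp1*, a lysosomal membrane protein, was at 202 and 210 FPKM, and *Stard3*, a sterol carrier of late endosomes, at 161 and 154 FPKM. Of 14 genes for lipases and their control, 7 were tested and all 7 lay within 1.5-fold. *Lipa*, the lysosomal acid lipase that lies near *Ch25h*, was at 48.1 and 58.1 FPKM, *Sel1l*, needed for the maturation of lipoprotein lipase, at 42.3 and 38.3 FPKM, and the protease gene *Furin* at 17.3 and 18.4 FPKM. Of the oxysterol list, which does not include *Ch25h*, 2 of 7 genes reached a mean of 1 FPKM, and both lay within 1.5-fold. *Hsd3b7*, a dehydrogenase of bile acid synthesis, was at 9.37 and 7.09 FPKM and *Cyp27a1*, the sterol 27-hydroxylase, at 1.66 and 1.44 FPKM. *Gpr183*, the receptor for an oxysterol derived from the product of *Ch25h*, was at 0.15 and 0.17 FPKM.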

How the data were processed

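RNA-Seq libraries were prepared from rRNA-depleted, fragmented RNA with ligated adaptors and sequenced paired-end. After adaptor removal the authors aligned the reads to mm9 using Segemehl, retained those with a unique position and obtained FPKM values with Cufflinks from Ensembl exons. The deposited table holds 1 FPKM column per library, WT and ΔM. Reads were not reprocessed, and no count model was used.

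Rows were taken by gene symbol. Gene types, lengths and 3′ UTRs came from GENCODE M1 on NCBIM37, the build of the files, which held 37039 of 37451 identifiers. Ratios used a pseudocount of 1 FPKM, which understates the change of low genes, and were taken over protein-coding genes that averaged 1 FPKM or more. Depth was found as the fragment number and fragment length (about 202 nt in WT and 200 nt in ΔM) that turn low FPKMs of single-transcript genes into whole fragments, within 0.03 of a fragment beside rounding, which held for 92.3% and 93.0% of the values used against 19.9% and 18.9% by chance. On 3 simulated libraries it was off by at most 1.11%. Poisson and exact binomial intervals (95%) used the shorter of the median annotated and the shortest coding transcript. The 12 binding positions matched NCBIM37 letter by letter. They include 1 TTP position of *Lpl* listed for 3 h of LPS, which is not shown above.

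Members and gene lists were chosen with earlier results of these data known. Besides the 8 genes and *Zfp36*, each list's 3 genes with the highest mean are named, and up to 4 past 1.5-fold that averaged 5 FPKM or more, other names being marked as chosen later. *Hmgcs1* and *Mvd* are not analysed here. Some genes of the lists are not reported here by name. Alternatives covered the pseudocount, the minimum, scaling, centring, the fold, the genes compared and the motif. Python 3.11.15, numpy 2.4.6, pandas 2.3.3, scipy 1.17.1 and matplotlib 3.10.9 were used.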

Additional observations from a re-analysis of the deposited data

How the results depend on the processing

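No paired analysis was possible because WT and ΔM were each represented by 1 library, and leaving out a library would have left nothing to compare. The log2 ratios of the 8 genes stayed within their counting intervals in all 32 comparisons with another pseudocount, centring or scaling. These alternatives could hardly move them. Centring used the median of -0.00148, scaling used a factor of 1.003, and all 8 genes were at 7.88 FPKM or more. Of 139 comparisons in all, 119 stayed close, 20 moved and 0 changed the sign of a gene past 1.5-fold. A change of sign was looked for only in *Apoe* and *Nr1h3*. A list median counted as close within a tolerance of up to 0.65, taken from the counting intervals of its genes. At 2-fold, 0 of the 8 genes were higher in ΔM, since *Nr1h3* is below it. Of the genes in the lipid lists, 3 were higher and 3 lower. The number of higher genes became 5 with a pseudocount of 0.1 FPKM, 5 with none, 1 at a minimum mean of 10 FPKM and 1 at 2-fold, and that of lower genes 0 at a minimum mean of 10 FPKM. The share of all tested genes past 1.5-fold upward, 4.83%, became 7.94%, 8.49%, 2.74%, 1.19% and 11.2% with a pseudocount of 0.1, with none, without a minimum, at 2-fold and with all genes of the table. The share downward, 5.36%, became 8.16%, 8.64%, 2.94% and 1.32% in the first 4 of these and 7.51% with all genes of the table. At 2-fold the share could only fall, and a pseudocount under 1 FPKM makes the ratios of low genes larger. The settings without a minimum and with all genes of the table counted a different set of genes. The median log2 ratio of the LXR receptor and cofactor list, -0.28, was 0.07 at a minimum mean of 10 FPKM, and that of the receptor list for lipoproteins, 0.08, was 0.31 with that minimum and -0.14 without one, where fewer or more genes were counted. At the minimum of 10 FPKM the median of the cholesterol synthesis list went from 0.06 to -0.14, a change of sign. That of the list of SREBP processing and feedback went from -0.06 to -0.26. Both were counted as close. With ATTTA in place of TATTTAT, 5 members held 20 matches in place of 3 members and 4 matches. The depth limits low genes such as *Apoc2* most.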
